A study of Mus musculus with 8 samples.

Results

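The complement system was represented by 9 genes, C1qa, C1qb, C1qc, C1ra, C4b, C3, C3ar1, C5ar1 and Serping1. They were found by gene symbol, through the RefSeq accession that the scanner files give for each probe, and 11 of the 56605 probes that were not controls belonged to them. C3 and C4b had 2 probes each and the other genes 1. All 9 genes passed the filter on dim probes, so that they made up 9 of 29362 tested features, which were 16852 named genes, each read from its brightest probe, and 12510 probes without a gene name.

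The samples were right fronto-parietal cortex, dissected on the side of the lesion and frozen, from 16 mice in 4 groups of 4. The groups were cryolesioned Il6-deficient, control Il6-deficient, cryolesioned floxed and control floxed mice, where a cryolesion is an injury made by freezing and Il6-deficient stands for mice described as lacking Il6 derived from microglia. Each of 8 Agilent arrays held total RNA of 2 animals, one in Cy5 and one in Cy3, in a loop of 4 sides with 2 arrays of opposite dye each. The lesion side paired both cryolesioned groups and the control side both control groups, while the deficient-lesion side set cryolesioned Il6-deficient against control floxed mice and the floxed-lesion side cryolesioned floxed against control Il6-deficient mice, so that cryolesioned and control mice of one genotype never met on an array. The time after the lesion, the strain, the ages, what controls received, the floxed sites and the driver of the deletion were not given in the sources used here.

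Complement is a set of proteins that mark and remove debris, synapses and microbes. The recognition molecule C1q is built of 3 chains, binds its target and activates the proteases C1r and C1s, which cut C4 and C2. The resulting convertase cuts C3, fragments of C3 and C4 stay attached to the surface, and the small fragments released from C3 and C5 act on 2 receptors of myeloid cells. The C1 inhibitor, made from Serping1, blocks C1r and C1s. In the brain, C1q comes mainly from microglia, while reactive astrocytes are a known source of C3 and C4.

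The share of probes well above background ran from 59.2% to 65.9% over the 16 channels, no spot was saturated, and all arrays came from 1 slide and 1 scan. Il6 itself was too dim to test: the brighter of its probes passed the background flag in 3 of 4 cryolesioned floxed mice and in none of the other 12, with log2 intensities of 6.13 ± 0.08 in cryolesioned and 5.90 ± 0.10 in control Il6-deficient mice, against 6.50 ± 0.27 in cryolesioned and 5.92 ± 0.06 in control floxed mice (SD, n = 4 each). Whether the Il6 probes lie in the deleted part is not given, so the genotype labels could not be checked with them. Xist and 4 Y-linked genes marked 0 of 8 cryolesioned mice as female, against 1 of 4 Il6-deficient and 3 of 4 floxed controls. Sex therefore cannot be fully told apart from lesion, nor from genotype in controls. The 6 choroid plexus markers summed to 22600 in Il6-deficient control 4, to 18400 in floxed control 1 and to 8780 in floxed control 3, and to between 514 and 2890 in the other 13 mice, on the linear intensity scale. The part of these sex and dissection differences in the results below was not tested beyond the alternatives given with them.

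After cryolesion all 9 genes had higher fitted levels in both genotypes. Averaged over genotypes, all 9 passed an adjusted p of 0.05, where 6.02% of all tested features were called higher. The median change of the 9 genes was 0.71 on the log2 scale, against -0.009 for all tested features. Within Il6-deficient mice 5 of 9 rose (C1qa, C1qb, C1qc, C4b and C5ar1), beside 1.67% of all features, with a median of 0.79. Within floxed mice 5 of 9 rose (C1qa, C1qb, C3, C4b and C5ar1), beside 1.86% of all features, with a median of 0.77. No member was called lower, beside 1.07% of all features in Il6-deficient and 1.19% in floxed mice. Tests were moderated tests of limma on log2 ratios, adjusted by the method of Benjamini and Hochberg over all 29362 features, and the level of an animal is the log2 intensity of its channel after normalization, compared between mice within a probe and not between probes. In these bulk samples, more cells of a type and more RNA per cell cannot be told apart.

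**Figure D1:**
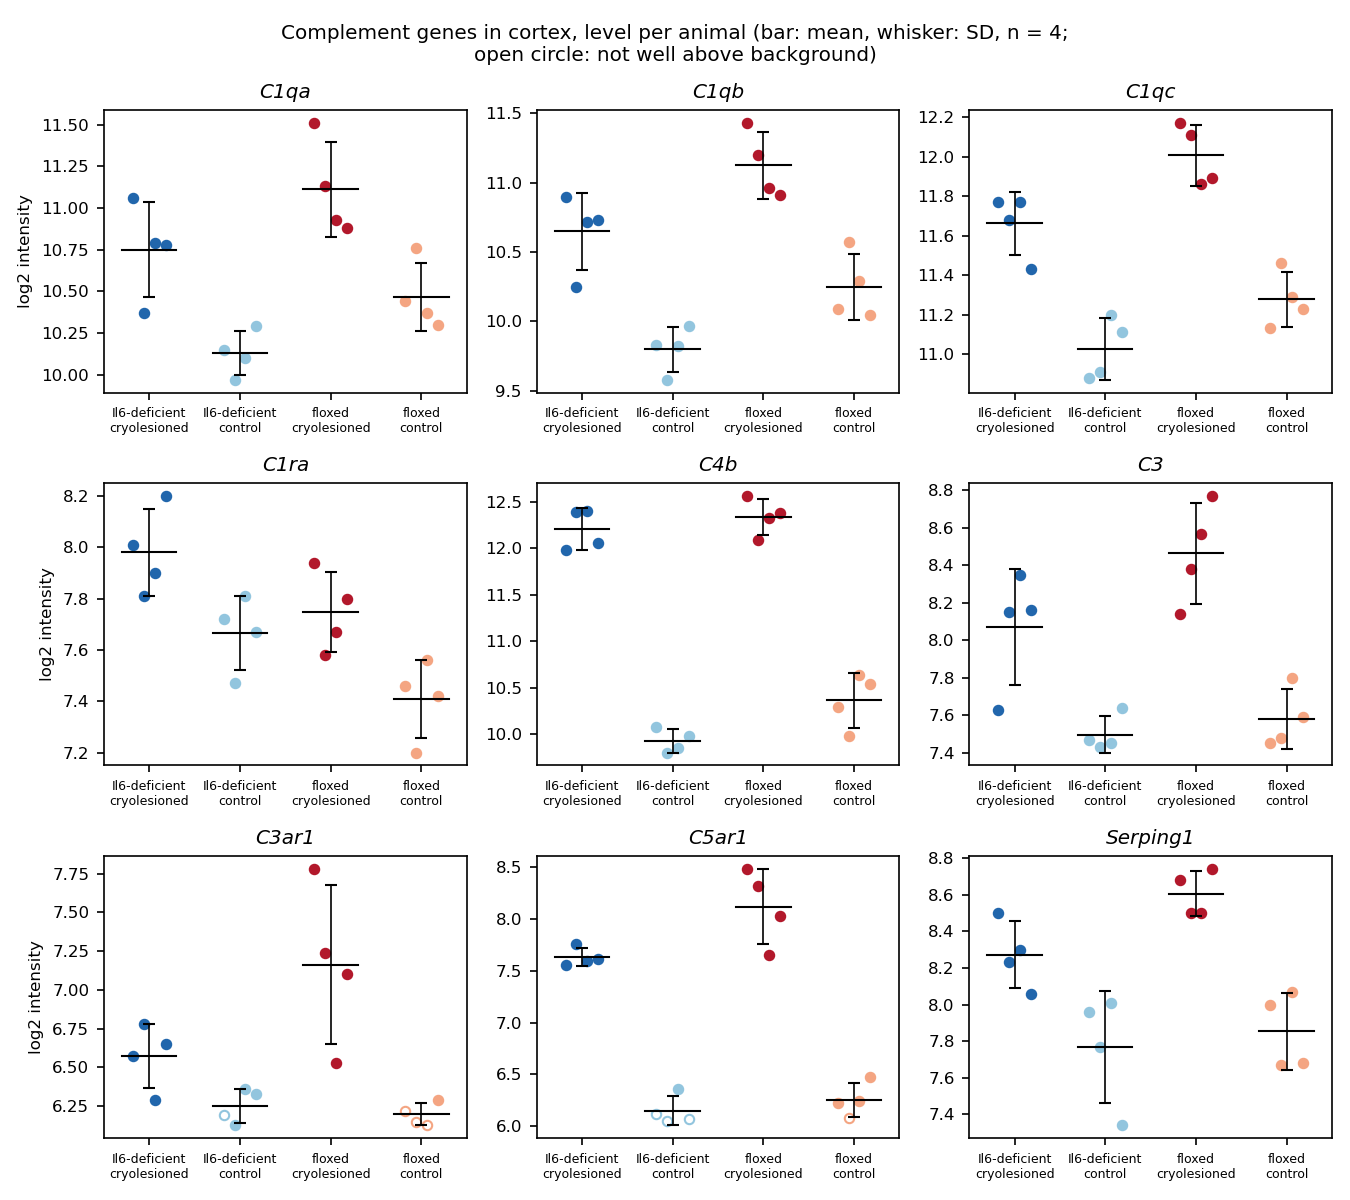
Log2 intensity of the brightest probe of each gene in every mouse, by group, with the mean as a bar and the SD as a whisker (n = 4). The 4 cryolesioned floxed mice sit above all 4 floxed controls for each of the 9 genes, and open circles mark values not well above background, which occur only in controls and only for C3ar1 and C5ar1.

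The 3 genes of C1q encode its A, B and C chains. In the RefSeq annotation they lie side by side on mouse chromosome 4, with C1qc between the other two. C1qa had log2 intensities of 11.06, 10.37, 10.79 and 10.78 in cryolesioned Il6-deficient mice 1 to 4, against 10.15, 9.97, 10.10 and 10.29 in Il6-deficient controls 1 to 4. In cryolesioned floxed mice its values were 11.51, 11.13, 10.93 and 10.88, against 10.44, 10.76, 10.37 and 10.30 in floxed controls. The lesioned mice lay above the controls of their genotype without overlap, although the highest floxed control came within the range of the lesioned Il6-deficient mice. The fitted change of C1qa was 0.96 ± 0.12 in Il6-deficient mice (adjusted p = 0.0142), against 0.61 ± 0.12 in floxed mice (adjusted p = 0.0438), on the log2 scale with the standard error.

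C1qb was measured at 10.90, 10.25, 10.72 and 10.73 in cryolesioned and at 9.83, 9.58, 9.82 and 9.97 in control Il6-deficient mice. In floxed mice the values were 11.43, 11.20, 10.96 and 10.91 after cryolesion, against 10.09, 10.57, 10.29 and 10.05 in controls. Mouse 2, in Cy3, was the lowest of both Il6-deficient groups, and mouse 1, in Cy5, the highest of the cryolesioned floxed group. C1qb rose 2.18-fold in Il6-deficient mice (95% interval 1.82 to 2.60, adjusted p = 0.00797) and 1.81-fold in floxed mice (1.52 to 2.16, adjusted p = 0.0151).

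C1qc followed with 11.77, 11.68, 11.77 and 11.43 in cryolesioned and 10.88, 10.91, 11.20 and 11.11 in control Il6-deficient mice. The values were 12.17, 12.11, 11.86 and 11.89 in cryolesioned floxed mice, against 11.13, 11.46, 11.29 and 11.23 in floxed controls. Neither pair of groups overlapped. Its change was 0.79 ± 0.11 in Il6-deficient mice (adjusted p = 0.0232), while the 0.53 ± 0.11 of floxed mice gave an adjusted p of 0.0587 and was not called. The C1qc group means differed by 0.64 in Il6-deficient and 0.73 in floxed mice. The floxed value exceeded the fitted change, which rests on ratios within arrays and so on animals of the other genotype as well. In the same order they differed by 0.62 and 0.65 for C1qa and by 0.85 and 0.87 for C1qb. By group means, the rise was thus not larger in Il6-deficient mice. The fitted difference between the genotypes' changes was 0.348 ± 0.165 for C1qa, 0.268 ± 0.153 for C1qb and 0.258 ± 0.16 for C1qc, none called.

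Across all 16 mice the levels of C1qa and C1qb correlated at r = 0.984, C1qb and C1qc at 0.940, and C1qa and C1qc at 0.906. After the group means were taken out, these became 0.955, 0.570 and 0.539. Mice that shared an array share its scan and its normalization, so these values describe the data and carry no test. Each group held mice in both dyes, and levels per mouse are not corrected for the dye effect of a gene. That fitted effect, Cy5 over Cy3 on the log2 scale, was 0.22 for C1qa, 0.24 for C1qb and 0.01 for C1qc. Its part in the correlations was not tested.

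The promoters of C1qb and C1qc are shown because these neighbouring genes moved together, with the 150 bases before each start in RefSeq's annotation of GRCm38.p6. Both are on the minus strand, at chr4:136886201-136886350 for C1qb and chr4:136892915-136893064 for C1qc.
C1qb: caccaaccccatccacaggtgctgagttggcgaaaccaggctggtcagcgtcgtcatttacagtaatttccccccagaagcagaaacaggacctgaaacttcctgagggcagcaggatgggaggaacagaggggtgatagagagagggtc
C1qc: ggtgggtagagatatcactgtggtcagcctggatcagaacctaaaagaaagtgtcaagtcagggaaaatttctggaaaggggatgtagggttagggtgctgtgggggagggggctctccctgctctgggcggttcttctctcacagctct
Neither stretch holds a match, on either strand, to any of 6 motifs searched: STAT (TTCNNNGAA), interferon response (GAAANNGAA), C/EBP (TTNNGCAA), NF-kB (GGGNNTTCC), the core of PU.1 (GAGGAAG) and AP-1 (TGANTCA). In the full window of 250 bases before to 50 after the start, C1qc held 1 match to the PU.1 core, at base -194 on the opposite strand, and C1qb held none. Of 32851 mouse promoters of this length, 13.6% held the PU.1 core, 10.8% the C/EBP motif, 8.56% the interferon motif, 8.30% the STAT motif, 7.81% the AP-1 motif and 5.82% the NF-kB motif. Promoters were matched for 6 of the 9 genes, and not for C1qa, C4b and Serping1. The C1qc start used here lies inside the span of the gene, so other transcripts start elsewhere.

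C1ra, the mouse gene of the protease C1r, gave the smallest change of the 9. It was measured at 8.01, 7.81, 7.90 and 8.20 in cryolesioned and at 7.72, 7.47, 7.81 and 7.67 in control Il6-deficient mice, where the lowest lesioned and the highest control mouse differed by less than the last digit shown. The values were 7.94, 7.58, 7.67 and 7.80 in cryolesioned floxed mice, against 7.46, 7.20, 7.56 and 7.42 in floxed controls. The changes of 0.25 ± 0.10 in Il6-deficient mice (adjusted p = 0.243) and 0.33 ± 0.10 in floxed mice (adjusted p = 0.135) did not pass the threshold. Their mean of 0.29 ± 0.07 did (adjusted p = 0.0436), and it was called in 5 of 19 alternative settings.

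C4b encodes complement component 4 and had the largest changes of the 9 genes in both genotypes, by the brightest probe of each in the fit used here. With the scanner software's processed signals the changes of C5ar1 were larger. In cryolesioned Il6-deficient mice the brighter C4b probe read 11.98, 12.39, 12.40 and 12.05, against 10.08, 9.80, 9.85 and 9.98 in Il6-deficient controls. Cryolesioned floxed mice gave 12.56, 12.09, 12.32 and 12.38, against 10.29, 9.98, 10.64 and 10.54 in floxed controls. The gap between the lowest lesioned and the highest control mouse exceeded 1 log2 unit across all 16 mice. C4b rose 4.10-fold in Il6-deficient mice (95% interval 3.06 to 5.49, adjusted p = 0.00653) and 4.02-fold in floxed mice (3.00 to 5.39, adjusted p = 0.0056). The difference between these changes was 0.03 ± 0.25 on the log2 scale, with a 95% interval from -0.57 to 0.63.

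The second C4b probe was dimmer and moved the same way. It read 9.21, 9.05, 9.32 and 9.52 in cryolesioned and 7.82, 7.50, 7.40 and 7.69 in control Il6-deficient mice. In floxed mice it read 10.16, 9.07, 9.40 and 9.72 after cryolesion, against 7.80, 7.64, 8.20 and 7.68 in controls. Its changes of 1.59 ± 0.19 in Il6-deficient mice (adjusted p = 0.0271) and 1.96 ± 0.19 in floxed mice (adjusted p = 0.0163), in a fit of all probes without the filter, were also called. C4b has a near-identical copy, C4a, and RNA of one may bind probes of the other, so the share of each in these values is uncertain.

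C3, the component on which all complement pathways meet, was the member whose fitted lesion change differed most between genotypes. By group means C3 differed by 0.58 in Il6-deficient and 0.89 in floxed mice. The gap was wider for C3ar1, at 0.32 and 0.96, and for C5ar1, at 1.49 and 1.86. For C4b the order was turned, at 2.28 and 1.97. The brighter C3 probe read 7.63, 8.15, 8.35 and 8.16 in cryolesioned Il6-deficient mice, against 7.47, 7.43, 7.45 and 7.64 in Il6-deficient controls. It read 8.14, 8.38, 8.57 and 8.77 in cryolesioned floxed mice, against 7.45, 7.48, 7.80 and 7.59 in floxed controls. The Il6-deficient groups met at 1 mouse, since cryolesioned mouse 1 lay just below control mouse 4, while the floxed groups were apart. C3 rose 2.03-fold in floxed mice (95% interval 1.57 to 2.62, adjusted p = 0.0242), whereas the 1.20-fold value of Il6-deficient mice was not called (0.928 to 1.55, adjusted p = 0.419). The call in floxed mice held in 13 of 19 alternative settings, and in 3 of the 8 with an array left out. The difference between the genotypes' changes was -0.76 ± 0.22 (95% interval -1.28 to -0.24, unadjusted p = 0.0108) and had an adjusted p of 1, so no difference between genotypes was shown over the whole array.

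The dimmer C3 probe gave larger changes with the same order. Its values were 7.23, 8.13, 8.82 and 8.35 in cryolesioned Il6-deficient mice, against 6.95, 6.50, 6.58 and 6.60 in Il6-deficient controls. They were 8.33, 8.48, 9.15 and 9.39 in cryolesioned floxed mice, against 6.78, 6.56, 7.40 and 6.96 in floxed controls. Both pairs of groups were apart for this probe. The fitted change was 0.79 ± 0.27 in Il6-deficient mice (adjusted p = 0.248) and 2.44 ± 0.27 in floxed mice (adjusted p = 0.0206), and the difference was -1.65 ± 0.37 (unadjusted p = 0.00412, adjusted p = 1). Because the 2 probes differ by more than 1.5 times, the size of the C3 change is not settled by these arrays.

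The C3 values also depended on how the channels were compared. The difference of group means of its brighter probe was 0.58 in Il6-deficient and 0.89 in floxed mice, and a separate-channel fit gave 0.51 (adjusted p = 0.0407) and 0.92 (adjusted p = 0.000927), calling both. In that fit the difference between genotypes was -0.41 ± 0.21. Without lesion-side array 1, which paired cryolesioned Il6-deficient mouse 1 with cryolesioned floxed mouse 3, the difference was -0.48 ± 0.21 in the ratio fit.

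**Figure D2:**
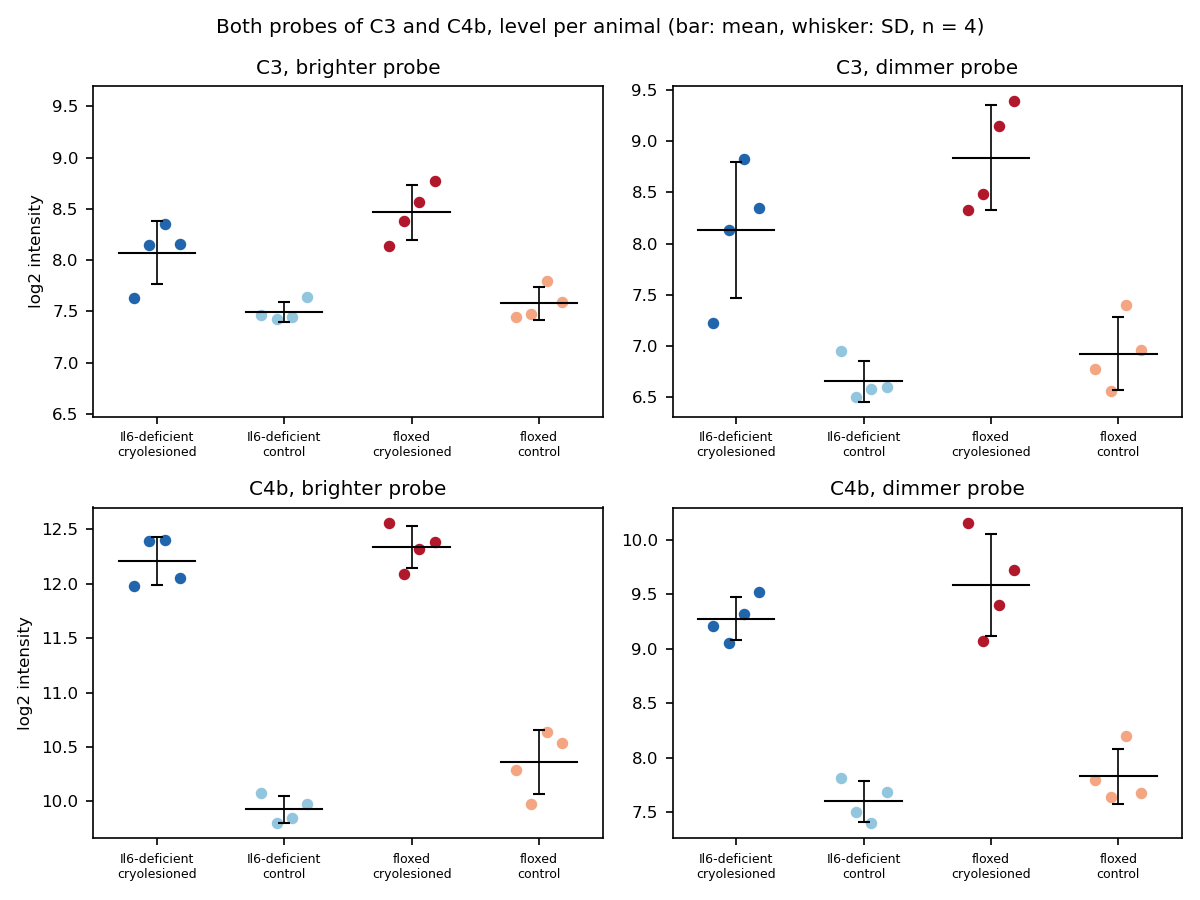
Log2 intensity per mouse of the brighter and the dimmer probe of C3 (top) and C4b (bottom), by group, with mean and SD (n = 4). Within a gene the axes span the same number of log2 units, and the dimmer C3 probe shows the larger separation, with group means of 8.13 in cryolesioned and 6.66 in control Il6-deficient mice, against 8.84 in cryolesioned and 6.92 in control floxed mice.

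The promoters of C3 and C5ar1 are shown as those of the members that were called in floxed mice and held a motif match. The 150 bases before the start lie at chr17:57228137-57228286 for C3 and chr7:16259339-16259488 for C5ar1, both on the minus strand of GRCm38.p6 in RefSeq, and capitals mark the match.
C3: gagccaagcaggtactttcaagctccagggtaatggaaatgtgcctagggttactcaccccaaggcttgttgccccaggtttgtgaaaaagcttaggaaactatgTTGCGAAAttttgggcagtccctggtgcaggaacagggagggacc
C5ar1: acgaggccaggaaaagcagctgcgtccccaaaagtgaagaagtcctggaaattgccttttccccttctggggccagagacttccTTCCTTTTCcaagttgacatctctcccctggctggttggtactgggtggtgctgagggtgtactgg
The C3 match is to the C/EBP motif on the opposite strand, at base -45, and the C5ar1 match to the interferon motif on the opposite strand, at base -66. The C5ar1 start used by RefSeq's table lies inside the span of the gene, so other transcripts start elsewhere. C3ar1 held an AP-1 match at base -22, and C1ra a STAT match at base 33 and a C/EBP match at base 17 after its start. These are matches of letters only.

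C3ar1 and C5ar1 encode the receptors for the small fragments of C3 and C5. Both were near background in control cortex. The C5ar1 probe was well above background in all 8 cryolesioned mice, against 1 of 4 Il6-deficient and 3 of 4 floxed controls. It read 7.56, 7.76, 7.60 and 7.61 in cryolesioned Il6-deficient mice, against 6.12, 6.05, 6.36 and 6.07 in Il6-deficient controls. In cryolesioned floxed mice it read 8.48, 8.32, 7.65 and 8.03, against 6.22, 6.08, 6.24 and 6.48 in floxed controls. The lesioned and control mice were more than 1 log2 unit apart in both genotypes, and the spread was 0.09 in cryolesioned Il6-deficient and 0.37 in cryolesioned floxed mice (SD, n = 4 each). C5ar1 rose 3.16-fold in Il6-deficient mice (95% interval 2.42 to 4.13, adjusted p = 0.00853) and 3.42-fold in floxed mice (2.61 to 4.47, adjusted p = 0.00631). As most Il6-deficient controls were not well above background, the fold depends on how background is corrected. With the scanner software's processed signals the log2 changes were 3.84 in Il6-deficient and 3.16 in floxed mice.

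C3ar1 was well above background in all 8 cryolesioned mice, against 3 of 4 Il6-deficient and 1 of 4 floxed controls. Its values were 6.57, 6.78, 6.29 and 6.65 in cryolesioned Il6-deficient mice, against 6.19, 6.13, 6.36 and 6.33 in Il6-deficient controls. They were 7.78, 7.24, 6.53 and 7.10 in cryolesioned floxed mice, against 6.22, 6.15, 6.13 and 6.29 in floxed controls. The Il6-deficient groups overlapped at cryolesioned mouse 3, and the floxed groups were apart. The changes of 0.65 ± 0.18 in Il6-deficient mice (adjusted p = 0.115) and 0.77 ± 0.18 in floxed mice (adjusted p = 0.0719) were not called, while their mean of 0.71 ± 0.13 was (adjusted p = 0.0163). Across the 16 mice the 2 receptors correlated at r = 0.861, and at 0.855 after the group means were taken out.

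Serping1, the gene of the C1 inhibitor, read 8.50, 8.23, 8.30 and 8.06 in cryolesioned Il6-deficient mice, against 7.96, 7.77, 8.01 and 7.34 in Il6-deficient controls. It read 8.68, 8.50, 8.50 and 8.74 in cryolesioned floxed mice, against 8.0, 7.67, 8.07 and 7.68 in floxed controls. Neither pair overlapped. The changes of 0.47 ± 0.18 in Il6-deficient mice (adjusted p = 0.22) and 0.75 ± 0.18 in floxed mice (adjusted p = 0.0737) did not pass. The mean of 0.61 ± 0.12 did (adjusted p = 0.0258), and it was called in 11 of 19 alternative settings and in 3 of the 8 with an array left out.

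Counted by animals, all 4 cryolesioned mice lay above all 4 controls for 7 of the 9 genes in Il6-deficient mice and for 9 of 9 in floxed mice. The same held for 7.95% of all features in Il6-deficient and 7.14% in floxed mice. The 2 exceptions were C3 and C3ar1 in Il6-deficient mice. No member had all cryolesioned mice below all controls, which held for 9.80% of features in Il6-deficient and 7.84% in floxed mice. In Il6-deficient mice C4b was called in 18, C5ar1 in 17, C1qb in 17, C1qa in 13 and C1qc in 10 of 19 alternative settings. With an array left out, C1qa was called there in 4 and C1qc in 2 of 8 fits. In floxed mice C4b was called in 18, C5ar1 in 17, C3 in 13 and C1qb in 12 of the 19 settings. C1qa in floxed mice was called in 4 of 19. Its change stayed between 0.51 and 0.70 over those settings. With 1 array left out at a time, the number of members called was 1 to 5 in Il6-deficient mice and 0 to 6 in floxed mice. It was 1 without lesion-side array 2 in Il6-deficient mice, and in floxed mice 0 without control-side array 1, 1 without lesion-side array 2, and 2 without array 1 of the floxed-lesion side or array 2 of the deficient-lesion side. For the mean of both genotypes it was 5 to 9, with 5 when either of these last 2 arrays was left out.

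**Figure D3:**
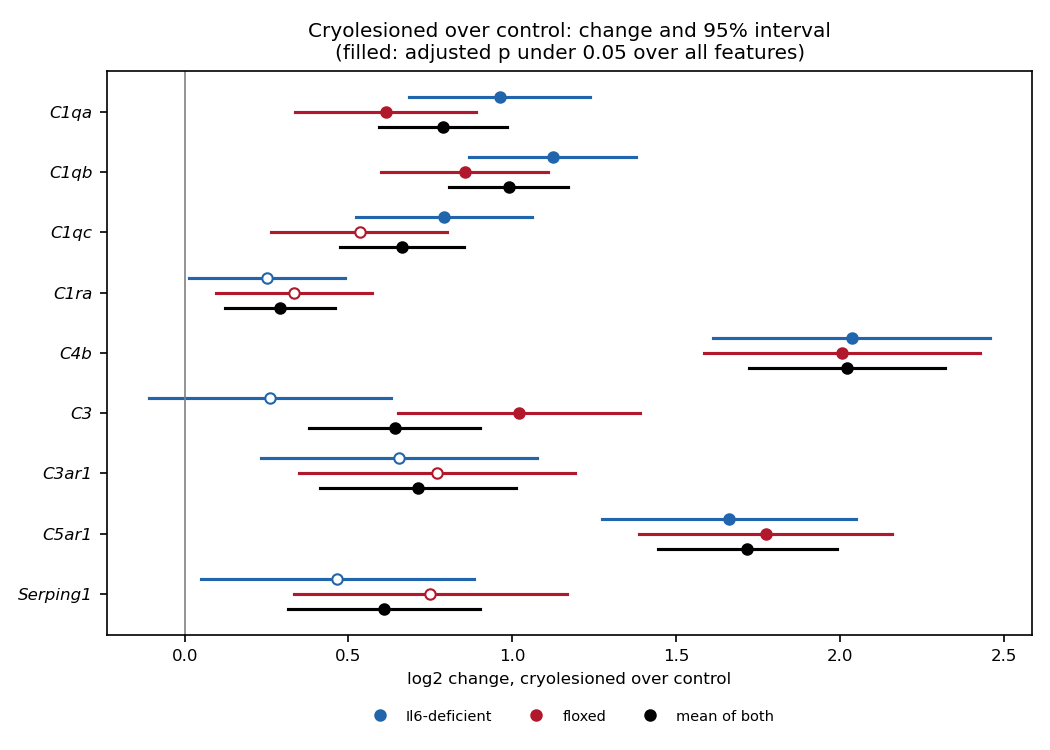
Fitted log2 change of cryolesioned over control mice for each gene in Il6-deficient mice, in floxed mice and as the mean of both, with 95% intervals on the horizontal axis. Filled points passed an adjusted p of 0.05 over all features: C4b and C5ar1 lie farthest right in both genotypes, and C3 is the only gene whose interval crosses 0, in Il6-deficient mice.

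Genotype was compared next, to see whether loss of Il6 from microglia went with other complement levels. No member and no other feature was called in controls, where 0% of features passed, or after cryolesion, where 0% passed. In the mean of both states 0 of 9 members were called, beside 0.00341% of features. At an unadjusted p under 0.05 the members numbered 4 of 9 in controls and 3 of 9 after cryolesion, against 4.42% and 8.61% of all features, and 9 of 9 in the mean of both states, against 14.1% of all features. In that mean 8 of the 9 had values below 0 and C1ra a value above 0.

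In controls the C1q genes had the lowest values of the 9. There the fitted log2 difference of Il6-deficient from floxed mice was -0.59 ± 0.09 for C1qb, -0.53 ± 0.10 for C1qa and -0.43 ± 0.10 for C1qc, each with an adjusted p of 0.983. Within an array, the 2 comparisons of Il6-deficient with floxed controls gave -0.26 and -0.99 for C1qb, -0.29 and -0.79 for C1qa, and -0.26 and -0.56 for C1qc, the larger value each time on the array with floxed control 2, which was the highest floxed control for all 3 genes. By the sex-linked genes, floxed control 2 was the only male floxed control. Its partner on that array, Il6-deficient control 2, was the only female Il6-deficient control. Genotype and sex thus cannot be fully told apart in controls. The 2 control-side arrays also had opposite dyes, with floxed control 2 in Cy5. The fitted dye effect, Cy5 over Cy3 on the log2 scale, was 0.24 for C1qb, 0.22 for C1qa and 0.01 for C1qc. The ratios within an array and the levels per mouse are not corrected for it. All 4 Il6-deficient controls lay below all 4 floxed controls for C1qa and C1qb, as did 2.12% of all features. For C1qa the nearest mice of these groups read 10.29 and 10.30. After cryolesion the fitted differences were -0.33 ± 0.09 for C1qb (adjusted p = 0.563), -0.18 ± 0.10 for C1qa (adjusted p = 0.628) and -0.17 ± 0.10 for C1qc (adjusted p = 0.632). By group means, C1qb differed by -0.45 in controls and -0.47 after cryolesion. In the same order C1qa differed by -0.34 and -0.37, and C1qc by -0.26 and -0.35. By group means, the genotype difference was thus not smaller after cryolesion. All 4 cryolesioned Il6-deficient mice lay below all 4 cryolesioned floxed mice for C1qb, C1qc and Serping1, as did 1.34% of all features. For Serping1 the nearest mice of both groups read 8.50 at the digits shown, and for C1qb they read 10.90 and 10.91. In no member did all Il6-deficient mice lie above all floxed mice, which held for 2.08% of features in controls and 3.02% after cryolesion.

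As the mean of both states, C1qb differed by -0.46 ± 0.05, with a fold of 0.727 and a 95% interval of 0.666 to 0.794 (unadjusted p = 6.31e-05, adjusted p = 0.229). C1qa differed by -0.35 ± 0.06 and C1qc by -0.30 ± 0.06, both with an adjusted p of 0.257. When the sex of each animal was added to the fit, 4 members passed, beside 1584 features in all. They were C1qb (-0.50, adjusted p = 0.0217), C1qa (-0.36, adjusted p = 0.0396), C1qc (-0.33, adjusted p = 0.0396) and C1ra (0.27, adjusted p = 0.0454). In this layout a sex term can only be told from the groups on control-side array 2, which paired a male floxed with a female Il6-deficient control, so that fit takes this array out of the residual spread. Without deficient-lesion-side array 1, C1qb (adjusted p = 0.0426) and C1qa (adjusted p = 0.047) passed as well, among 168 features in all.

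Of the other members, C3 differed by 0.14 ± 0.14 in controls and by -0.62 ± 0.14 after cryolesion (adjusted p = 0.563), with the direct ratios at -0.94 and -0.62 on the 2 arrays that held cryolesioned mice of both genotypes. C4b differed by -0.30 ± 0.15 in controls and -0.27 ± 0.15 after cryolesion. C5ar1 had -0.24 ± 0.14 in controls and -0.35 ± 0.14 after cryolesion. C3ar1 had -0.21 ± 0.15 and -0.33 ± 0.15 in the same order, and Serping1 -0.07 ± 0.15 and -0.35 ± 0.15. C1ra was the only one above 0 in both states, with 0.29 ± 0.09 in controls and 0.20 ± 0.09 after cryolesion. None of these passed, and their 95% intervals reach from -0.94 to 0.49. By group means, C3 differed by -0.08 in controls and -0.39 after cryolesion, and C3ar1 by 0.05 and -0.59. The signs of the others in this paragraph were the same by both measures.

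**Figure D4:**
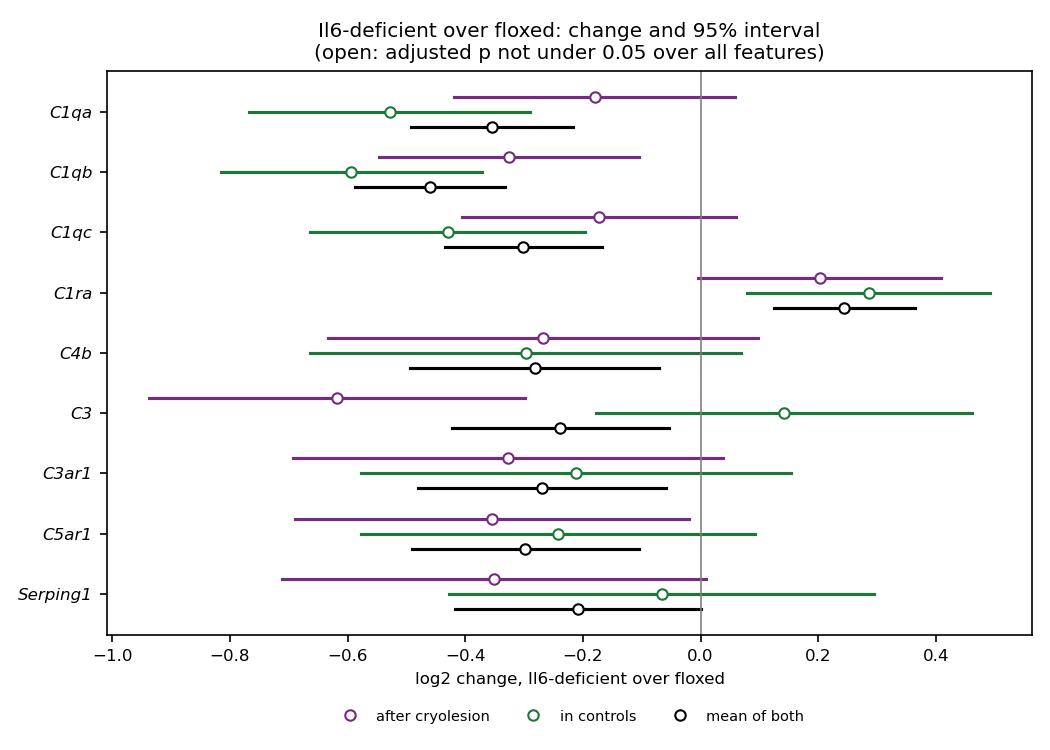
Fitted log2 difference of Il6-deficient from floxed mice for each gene, after cryolesion, in controls and as the mean of both, with 95% intervals. All points are open, as none passed an adjusted p of 0.05, and 8 of 9 means lie left of 0, with C1ra on the right.

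**Figure D5:**
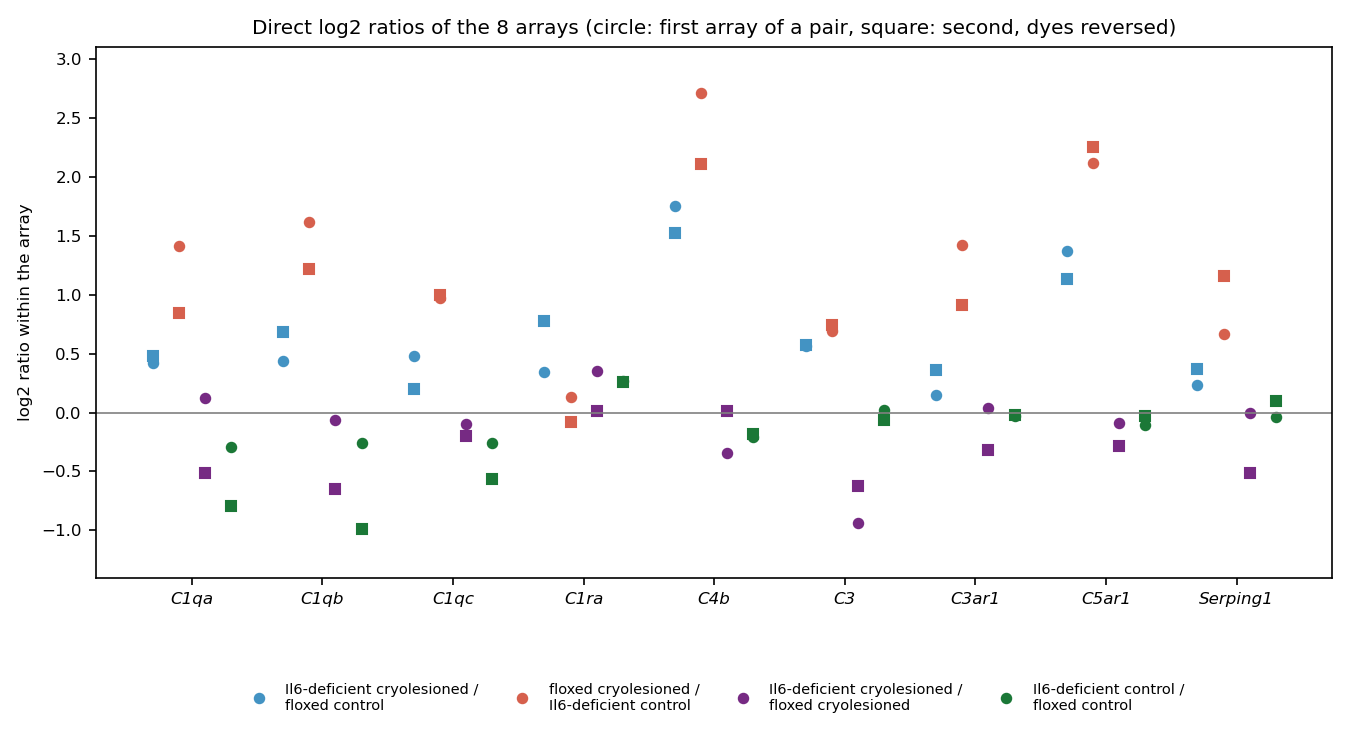
Log2 ratio within each of the 8 arrays for the brightest probe of each gene, 2 arrays of opposite dye for each kind of pairing. The ratios of cryolesioned over control mice reach 2.71 for C4b and 2.25 for C5ar1, while C1ra gives 0.13 and -0.08 for cryolesioned floxed over control Il6-deficient mice.

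The direct ratios show the design behind these values. Cryolesioned Il6-deficient over control floxed mice gave 1.75 and 1.52 for C4b, 1.37 and 1.13 for C5ar1, and 0.44 and 0.68 for C1qb. Cryolesioned floxed over control Il6-deficient mice gave 2.71 and 2.11 for C4b, 2.12 and 2.25 for C5ar1, and 1.62 and 1.22 for C1qb. For these 3 genes both values of the second pairing were larger than both of the first, and for C1ra the order was turned, with 0.34 and 0.78 in the first pairing and 0.13 and -0.08 in the second. The 2 pairings differ in genotype on both sides and in the animals, so the ratios are given as measured. The 4 controls hybridised together with a cryolesioned mouse read 10.25 on average for C4b and 7.62 for C3, against 10.04 and 7.46 in the other 4 controls. The same means were also higher for C5ar1 (6.29 against 6.12), C1ra (7.62 against 7.46), C1qc (11.21 against 11.09) and C3ar1 (6.28 against 6.17). For C1qa they were 10.27 against 10.33, for Serping1 7.78 against 7.85 and for C1qb 10.03 against 10.02.

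The rest of the pathway was read from a list of 52 other complement genes, of which 36 were tested and 16 were too dim, 13 of them not well above background in any channel. Among the 36, none rose and 1 fell after cryolesion in Il6-deficient mice, and 1 rose and 1 fell in floxed mice, with a median change of 0.00 in both genotypes, beside 2.73% of all features called in either direction in Il6-deficient and 3.05% in floxed mice. In the mean of both genotypes 3 rose and 2 fell, beside 6.02% of features higher and 5.87% lower, with a median of 0.05. No listed gene was called in a genotype contrast.

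Of the classical pathway, 6 other genes were tested. C4a, the copy of C4b, had a change of 0.88 ± 0.19 in Il6-deficient mice (adjusted p = 0.0637) and rose by 1.14 ± 0.19 in floxed mice (adjusted p = 0.0294), with the uncertainty named for C4b. C2, the partner of C4 in the convertase, fell by 0.60 in Il6-deficient mice (SE 0.11, adjusted p = 0.0408), and its change of -0.46 ± 0.11 in floxed mice had an adjusted p of 0.0723. The call in Il6-deficient mice was absent from all 8 fits that omitted an array, and was also lost with median centring, processed signals, no dye term, sex or the replicate numbers in the fit. Group means were 6.89 in cryolesioned and 7.22 in control Il6-deficient mice, against 6.89 in cryolesioned and 7.43 in control floxed mice. By group means, the fall was thus not larger in Il6-deficient mice. The C2 groups overlapped, with 7.22, 6.55, 7.28 and 6.51 in cryolesioned and 7.19, 7.40, 7.37 and 6.91 in control Il6-deficient mice.

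Of 6 other complement receptors 5 were tested, and 2 were called higher in the mean of both genotypes. Cd93, a surface protein once described as a C1q receptor, read 9.87 to 10.75 in cryolesioned and 8.77 to 9.05 in control Il6-deficient mice, against 9.60 to 11.46 in cryolesioned and 8.86 to 9.23 in control floxed mice. Its groups were apart in both genotypes, and it rose by 1.47 ± 0.30 in the mean of both (adjusted p = 0.0256), while the changes of 1.86 in Il6-deficient and 1.08 in floxed mice, with a standard error of 0.43, were not called. Itgb2, the shared chain of the integrin receptors for C3 fragments, rose by 0.64 ± 0.10 in the mean (adjusted p = 0.0103) and had 0.70 in Il6-deficient and 0.57 in floxed mice. Group means of Cd93 were 10.33 in cryolesioned and 8.96 in control Il6-deficient mice, against 10.56 and 9.09 in floxed mice. Those of Itgb2 were 7.65 and 7.09, against 7.99 and 7.28, in the same order. By group means, neither rise was larger in Il6-deficient mice.

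Among fluid-phase regulators, Vtn, the gene of vitronectin, fell by 0.65 in floxed mice (SE 0.09, adjusted p = 0.0191) and by 0.44 in the mean (SE 0.06, adjusted p = 0.00898), with -0.23 in Il6-deficient mice (adjusted p = 0.234). Its levels were 10.91 to 11.09 in cryolesioned and 11.23 to 11.40 in control Il6-deficient mice, against 10.59 to 10.96 in cryolesioned and 11.16 to 11.56 in control floxed mice. Of those not called, Clu, the gene of clusterin, had -0.40 in Il6-deficient and -0.65 in floxed mice. Sez6l2, a neuronal protein with complement control domains, had -0.53 and -0.61, and Cfp, the gene of properdin, 0.66 and 0.41 in the same order. Group means of Sez6l2 were 12.93 in cryolesioned and 13.61 in control Il6-deficient mice, against 12.87 and 13.33 in floxed mice. None of the 13 membrane regulators was called in a cryolesion contrast, and their median was -0.13 in Il6-deficient and -0.15 in floxed mice. Of the 7 genes of the terminal pathway 5 were too dim to test. Of the lectin pathway 4 of 9 were tested and none was called.

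Markers of the cell types in the cortex were read beside these genes, as counts over fixed lists and as summed linear intensities. All 10 microglia markers were tested, and 1 rose in each genotype, Fcrls. Their sums were 50700 to 76400 in cryolesioned and 54300 to 73400 in control Il6-deficient mice, against 48000 to 62700 in cryolesioned and 46400 to 61100 in control floxed mice, so the groups overlapped. Cx3cr1, P2ry12 and Tmem119 had changes of 0.43, -1.30 and -0.52 in Il6-deficient mice and 0.28, -1.64 and -0.62 in floxed mice, none called. The part of microglial number in the C1q values was not tested.

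Of 10 markers of monocytes and border macrophages, 1 rose in Il6-deficient and 2 in floxed mice. Their sums were 4990 to 7700 in cryolesioned and 4370 to 5800 in control Il6-deficient mice, against 6230 to 11100 in cryolesioned and 4810 to 5010 in control floxed mice. Of 7 neutrophil markers tested, S100a8 and S100a9 rose in both genotypes and the other 5 were not called. The sums of the list were 1390 to 2550 in cryolesioned and 792 to 933 in control Il6-deficient mice, against 1700 to 4630 in cryolesioned and 827 to 918 in control floxed mice, with Ngp not well above background in any mouse. The part of these cells in the receptor values was not tested.

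Of 10 astrocyte markers 3 rose and 1 fell in each genotype. Gfap, the intermediate filament of reactive astrocytes, rose by 3.65 in Il6-deficient mice (adjusted p = 0.00344) and by 3.50 in floxed mice (adjusted p = 0.00353). The summed astrocyte level overlapped between groups, at 113000 to 165000 in cryolesioned and 117000 to 148000 in control Il6-deficient mice, against 106000 to 135000 in cryolesioned and 116000 to 162000 in control floxed mice. Of 10 markers of cortical neurons 1 fell in Il6-deficient and 2 fell in floxed mice. Their sums were 103000 to 174000 in cryolesioned and 174000 to 208000 in control Il6-deficient mice, against 93500 to 118000 in cryolesioned and 127000 to 177000 in control floxed mice.

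The genes whose level per mouse was most like that of the members were ranked by Pearson's r over 16 mice among 16807 named genes outside the complement list. For the mean of the 3 C1q genes these were Cmtm3 (0.956), Fcrls (0.956) and Cyth4 (0.953). For C4b, Mcm3 (0.986) and Ccl12 (0.982) are given. For C3 they were Rfc4 (0.959), Rps27l (0.930) and Hmgb2 (0.928), and for Serping1 Nid2 (0.935), Bst1 (0.913) and Apold1 (0.909). Ccl12, a chemokine, had changes of 4.58 in Il6-deficient and 4.42 in floxed mice. After the group means were taken out, the correlations of the named genes were between 0.72 and 0.80 for C1q, 0.71 and 0.83 for C3, and 0.57 and 0.77 for Serping1, and for C4b they were 0.65 with Mcm3 and 0.48 with Ccl12.

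Among the 9 genes, the 36 pairs correlated at r = 0.358 to 0.984 over the 16 mice. After the group means were taken out the range was -0.606 to 0.955, and 13 of the 36 were below 0. The lowest was C1qa with C3, at -0.606, where the value over all mice was 0.623. These correlations share arrays and normalization between mice, rest on levels not corrected for the dye effect of each gene, and are descriptions with no test.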

How the data were processed

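Total RNA of 16 mice was hybridised to 8 Agilent 2-colour arrays, with 4 animals in each of 4 groups, as the labels give them. Per the file headers, the deposited scanner files come from Agilent Feature Extraction 10.7.3.1 and hold the median intensity of each spot and its local background, flags for spots well above background, outlying or saturated, processed intensities (background-subtracted and dye-normalized by the software) and their log10 ratio of red (Cy5) over green (Cy3). The authors also deposited a table of log2 ratios, 1 column per array, with its normalization not given in the sources used here. Its columns rose with red over green at r = 0.966 to 0.977 with the ratios computed here and slopes of 1.11 to 1.25, so that its scaling is unknown. Their medians were 0.0030 and -0.0045 on the control side, 0.0021 and 0.0019 on the side of floxed cryolesioned with Il6-deficient control mice, 0.0050 and 0.0029 on the side of both cryolesioned groups and 0.0043 and -0.0015 on the side of Il6-deficient cryolesioned with floxed control mice.

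From the scanner intensities, limma 3.58.1 in R 4.3.3 corrected the background (normexp, offset 50) and normalized within arrays (loess, controls and 115 to 194 outlying spots per array at weight 0). Probes well above background in at least 4 of 16 channels were kept (37352), and a named gene was read from its brightest probe. Log2 ratios of all 8 arrays were fitted with 3 group coefficients and a dye term (4 residual degrees of freedom), with Benjamini-Hochberg adjustment over all features and a threshold of 0.05. Levels per animal are channel values after loess and Aquantile. The number of arrays limits the precision. The labels name animals as biological replicates. In simulated data for cryolesion in floxed animals, 66.5% of 200 probes changed by 1 log2 unit and 93.0% of 200 changed by 2 were recovered among 37344 probes.

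Alternatives were another offset, median centring, processed signals, the authors' table, no filter, the mean of a gene's probes, no dye term, sex, replicate numbers, a separate-channel fit and leaving out each array. The dimmer probes of C3 and C4b as an alternative were chosen after seeing the data. For members with a single probe, that alternative and the mean of probes refit the same ratios, so they could hardly change a call. The 9 genes, the lists and the rule for named genes were chosen with earlier results of these data known. The rule names all members, other complement genes called in any contrast and the 3 largest not called per contrast with calls, 3 genes most like each of 4 patterns, up to 3 markers a list, Il6 and sex-linked genes, and 1 gene that it names is not reported here. Promoter sequences are from RefSeq, build GRCm38.p6.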

Additional observations from a re-analysis of the deposited data

How the results depend on the processing

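Over 19 alternative settings every member kept a change above 0 after cryolesion in each genotype and in the mean of both. Signs turned only in genotype contrasts that were not called, 6 times in controls and 12 times in the difference between genotypes, and no called value turned its sign. Counts are of features with an adjusted p under 0.05. In Il6-deficient mice 803 features, 5 members and 1 other complement gene were called, in floxed mice 896, 5 and 2, and in the mean of both 3492, 9 and 5. With median centring 358 features were called in Il6-deficient and 358 in floxed mice, with 3 members in Il6-deficient mice and 0 other complement genes in either. With processed signals 446 were called in Il6-deficient and 446 in floxed mice, with 3 members and 1 other complement gene in floxed mice. A normexp offset of 16 and the authors' table each gave 4 other complement genes in Il6-deficient mice. Without a dye term 3 members were called in floxed mice, and 0 other complement genes in Il6-deficient mice, 1 in floxed mice and 8 in the mean. With sex in the fit 0 other complement genes were called in Il6-deficient mice, while the mean genotype contrast had 1584 features and 4 members. The separate-channel fit called 3138 features and 6 other complement genes in Il6-deficient mice, 4902 and 8 with 9 members in floxed mice, and 8420 and 15 in the mean, and 1 feature in each genotype contrast. The mean genotype contrast, with 1 feature called, had 0 with median centring, processed signals, no dye term or the replicate block. The cause of these shifts was not tested.

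With the replicate block, the labels' animal numbers as terms in the fit, 6 features, 0 members and 0 other complement genes were called in Il6-deficient mice, 337, 3 and 0 in floxed mice, and 772, 5 and 2 in the mean of both. Of 20 pairs of mice with the same number on different arrays, the mean correlation of deviations from the group means was 0.106 (-0.251 to 0.533), against -0.036 in other pairs, so the numbers were not taken to pair the mice, and the block leaves fewer residual degrees of freedom.

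Leaving out each array in turn gave 37 to 1187 features, 1 to 5 members and 0 to 2 other complement genes in Il6-deficient mice, 57 to 2140, 0 to 6 and 0 to 7 in floxed mice, and 928 to 5179, 5 to 9 and 2 to 11 in the mean of both. The lowest counts came without lesion-side array 2 in each genotype (37 and 57) and without deficient-lesion-side array 2 in the mean. The genotype contrasts had 0 to 3 features in controls, 0 after cryolesion, 0 to 168 with 0 to 2 members in the mean of both states, and 0 to 1 in the difference between genotypes. C4b in floxed mice missed the threshold in 1 of 19 settings, without control-side array 1 (1.96, adjusted p = 0.0527). Group levels without Aquantile moved by less than the spread between mice in 36 of 36 cases. Signal over background limits C3ar1 and C5ar1 in controls, and over the settings the change of C3ar1 ran from 0.28 to 1.78 in Il6-deficient and 0.607 to 1.94 in floxed mice, and that of C5ar1 from 1.32 to 3.84 in Il6-deficient and 1.67 to 3.16 in floxed mice.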

Other observations

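Oligodendrocytes, the myelin-forming cells, were read from 6 markers, of which none was called after cryolesion. Their summed intensities did not overlap between lesioned and control mice of the same genotype: 50200 to 70500 in cryolesioned and 71700 to 102000 in control Il6-deficient mice, against 31600 to 72000 in cryolesioned and 82100 to 97000 in control floxed mice. The median change of the 6 markers was -0.64 in Il6-deficient and -0.24 in floxed mice. None of 8 meningeal fibroblast markers was called, and their sums were 1760 to 3040 in cryolesioned and 2120 to 2770 in control Il6-deficient mice, against 2150 to 5290 in cryolesioned and 2330 to 3330 in control floxed mice. None of 6 endothelial markers was called, with sums of 5390 to 7730 in cryolesioned and 5210 to 5940 in control Il6-deficient mice, against 5270 to 8290 in cryolesioned and 5410 to 7030 in control floxed mice. None of the 6 choroid plexus markers was called, and Ttr, the transthyretin of the choroid plexus, had changes of -2.15 in Il6-deficient (adjusted p = 0.34) and -2.79 in floxed mice (adjusted p = 0.22).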
